A study of Mus musculus with 2 samples.

Results

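Inflammatory cells of the induction medium were the 149 mouse hepatocyte culture cells with the largest share of transcripts from 5 genes, out of 1245 cells kept in that library and 2436 kept in the series. The 5 genes were Cxcl1, Cxcl2, Il1rn, Saa4 and Tnfaip2. For each cell their UMIs, which are counted transcript molecules, were summed and divided by the cell's total, and the top 12% of cells with at least 500 detected genes and at most 25% mitochondrial UMIs were taken. They were set against the 1096 other induction cells. Because measured transcripts chose the cells, every difference between these groups of cells is a description of how the library is laid out, and no test was made.

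Hepatocytes are the main functional cells of the liver, and these came from C57BL/6 mice. They were grown as a gel culture in growth-factor reduced matrigel, a basement membrane extract, under William E medium. The induction medium held 3 uM dexamethasone, a synthetic glucocorticoid. The expansion medium held 3 uM CHIR99021, which blocks the kinase GSK3, and 100 ng/mL TNFa, an inflammatory cytokine. Both media held EGF at 25 ng/mL, HGF at 50 ng/mL, the ROCK inhibitor Y27632 at 10 uM, the TGF-beta receptor inhibitor A83-01 at 1 uM, nicotinamide at 100 mM and N-acetylcysteine at 1.25 mM. Glutamax, non-essential amino acids, pen/strep and the N2 supplement were at 1% each, B27 at 2% and the antimicrobial normocin at 0.2%. The study's title speaks of long-term culture. How many animals gave the cells is not stated in the sources used here. Each medium had 1 library, so medium and library cannot be told apart, and cells of 1 library are not replicates. Intervals are given at 95% and reflect counting error alone.

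TNF, interleukin-1 and microbial products free the transcription factor NF-kB from its inhibitors, and hepatocytes then make chemokines and acute phase proteins. CXC chemokines such as Cxcl1 and Cxcl2 bind the receptor Cxcr2 on neutrophils and draw them into tissue. Acute phase proteins, among them the serum amyloid A proteins, are secreted by the liver into blood during inflammation, and glucocorticoids are known to repress many chemokine genes while raising several acute phase genes.

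The start regions of 3 chemokine genes are shown because they share the same short letter runs. Cxcl1 and Cxcl2 stood higher in the inflammatory cells by the choice of cells. Cxcl3, which is outside the rule, stood higher as well (levels are given further on). The stretches are from RefSeq on GRCm38.p6, each from 110 bases before the gene's start to 10 bases after, 5′ to 3′ on the strand of the gene. Capitals mark the run GGAATTTCC, the letters of a kappaB site that NF-kB is known to bind, or its reverse complement, and the run ATAAAAGG, the letters of a TATA box. Cxcl1 lies at chr5:90891135-90891254, Cxcl2 at chr5:90903789-90903908 and Cxcl3 at chr5:90785991-90786110, all on the + strand. Nfkbia, the gene of the NF-kB inhibitor IkappaB-alpha, lies at chr12:55492638-55492757 on the - strand and is shown as a gene that holds the kappaB letters but differed little between the groups.
Cxcl1: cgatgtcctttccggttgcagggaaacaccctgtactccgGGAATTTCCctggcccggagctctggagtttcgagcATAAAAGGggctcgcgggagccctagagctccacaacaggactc
Cxcl2: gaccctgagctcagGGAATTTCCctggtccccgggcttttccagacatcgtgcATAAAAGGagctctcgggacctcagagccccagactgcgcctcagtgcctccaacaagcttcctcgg
Cxcl3: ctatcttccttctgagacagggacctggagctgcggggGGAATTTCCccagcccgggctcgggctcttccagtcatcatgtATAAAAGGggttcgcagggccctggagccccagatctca
Nfkbia: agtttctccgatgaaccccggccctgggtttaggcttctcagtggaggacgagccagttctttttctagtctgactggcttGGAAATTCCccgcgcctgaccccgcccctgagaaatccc
The 9 letters GGAATTTCC began at position -70 from the start in Cxcl1, at -96 in Cxcl2 and at -72 in Cxcl3, each on the strand of the gene, and at -29 in Nfkbia on the opposite strand.

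Windows from 250 bases before to 50 bases after a gene's start were searched, 300 bases each and 32851 in all. The 9 letters were found on either strand in 104 windows (0.317%), and the 8 letters ATAAAAGG on the strand of the gene in 377 (1.15%). Only 3 windows (0.00913%) held both runs, and these were the windows of Cxcl1, Cxcl2 and Cxcl3. The letters were chosen with these start regions in view, so the count of 3 is a description of them. The looser kappaB consensus, searched on both strands, was in 2779 windows (8.46%). In each of the genes printed above it overlapped the 9 letters. Among the 5 genes of the rule it was found for Cxcl1, Cxcl2 and Tnfaip2, a TNF-induced gene, and neither form was found for Saa4 or in any of the 3 windows of Il1rn. The lymphotoxin gene Ltb and the chemokine gene Ccl20 held the consensus and not the 9 letters, and Saa1, Saa2, Saa3 and Lcn2 held neither in these windows. Of the genes with the largest ratios named further on, the consensus was in the windows of 2 of 9 higher and 3 of 13 lower genes found in the table, and the 9 letters in 0 of either.

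The library held 1275 barcodes and 9305593 UMIs, of which 30 barcodes were left out. Inflammatory cells had a median of 6735 UMIs, 1887 genes and 7.44% mitochondrial UMIs per cell, against 6773 UMIs, 2008.5 genes and 6.77% in the other induction cells. Their summed UMIs were 1090508, against 8111379, so that 3 UMIs correspond to 2.75 CPM (counts scaled to a common total), against 0.370 CPM. The expansion library kept 1191 cells and had a median of 23184 UMIs per cell. It shared 4 cell barcodes with the induction library, none of them of an inflammatory cell. A joint gauge of free RNA and of mixed cells (doublets), which were not removed, came from Xist, a transcript of female cells. It was found in 22 of 525 cells with a Y-linked UMI (4.19%, 2.64 to 6.28; median 7326 UMIs), and in 412 of 720 cells without one (57.2%; median 6385 UMIs).

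All 5 genes of the rule were higher in the inflammatory cells by choice, and Cxcl1 dominated the score. The 5 genes took 0.476% of the UMIs of inflammatory cells, against 0.137% in other induction cells. Per 10000 UMIs the score ran from 32.1 to 109 with a median of 41.4 in inflammatory cells, against 0 to 32.1 with a median of 12.1. The cells just inside the threshold scored 32.3142, 32.3102 and 32.1392, and those just outside scored 32.1384, 32.0556 and 31.9933, so the threshold divides a continuous range. In expansion medium 126 of 1191 cells (10.6%, 8.89 to 12.5) scored at least as high, with a median over that library of 16.8. Expansion cells were deeper, with a median of 23184 UMIs, and the score was not thinned. The 10.6% and the 12% of the rule are therefore not like shares. Cxcl1 had the most UMIs of the 5 genes in 139 of the 149 inflammatory cells, Cxcl2 in 7, Saa4 in 2, and 1 cell had a tie.

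Cxcl1, a neutrophil-attracting chemokine, stood at 3171 CPM (3066 to 3278) in inflammatory cells, against 981 CPM (959.9 to 1003) in other induction cells and 1073 CPM in expansion cells. Per 10000 UMIs it ran from 9.51 through a median of 31.0 to 84.7 in inflammatory cells, against 0, 8.51 and 30.4 in the others. Every inflammatory cell held it, as did 992 of the 1096 others. Cxcl2, the closely related chemokine, stood at 780 CPM (729 to 835), against 103 CPM (96.0 to 110.0) in other induction cells and 209.7 CPM in expansion cells. It was present in 114 of 149 inflammatory cells, against 309 of 1096 others. Il1rn, the antagonist that blocks the interleukin-1 receptor, stood at 226 CPM, against 100.1 CPM and, in expansion cells, 88.7 CPM. Saa4, a serum amyloid A gene, stood at 444 CPM, against 119.6 CPM and, in expansion cells, 181 CPM. Tnfaip2 stood at 140.3 CPM, against 66.4 CPM, both under its 239 CPM in expansion cells. Cell by cell, the 2 groups of induction cells overlapped in each of the 5 genes.

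The 5 genes were also measured in UMIs that were not used to pick the cells. With each cell's UMIs split at random into 2 equal parts, cells chosen in 1 part and measured in the other stood higher by 2.67-fold in Cxcl1, 6.67-fold in Cxcl2, 2.26-fold in Il1rn, 2.78-fold in Saa4 and 2.04-fold in Tnfaip2, and 114 of the 149 chosen cells were the same. When each gene was left out of its own choice, cells chosen by the other 4 stood at 2260 CPM of Cxcl1, against 1102 CPM in the rest. The folds over the rest were then 2.05 for Cxcl1, 4.87 for Cxcl2, 1.98 for Il1rn, 2.61 for Saa4 and 1.94 for Tnfaip2. These cells shared 89 members with the 149 where Cxcl1 was left out, and 130 to 144 where another gene was. Each of the 5 genes stood higher in cells that were chosen without it, and the cells were of 1 library in every case. The rule itself was set with earlier results of these data known. These values therefore describe the 5 genes and give no independent support for the group.

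**Figure D1:**
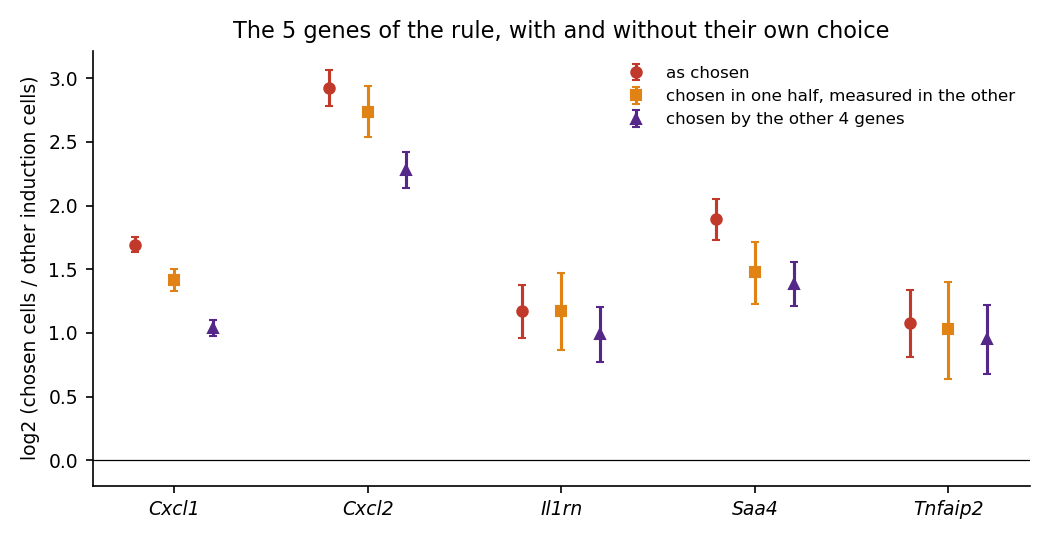
Log2 ratio of chosen over other induction cells for the 5 genes of the rule (y axis), as chosen (circles), chosen in 1 of 2 random parts of the UMIs and measured in the other (squares), and chosen by the other 4 genes (triangles), with 95% counting intervals. All points lie above 0, and Cxcl2 is highest under each choice, at 2.92, 2.74 and 2.28.

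Most inflammatory cells held several of the 5 genes. With cells thinned to 2000 UMIs, 4 of the 149 inflammatory cells held all 5 genes, 18 held 4, 52 held 3, 49 held 2 and 26 held 1. Of the 1082 other cells deep enough to be thinned, 1 held all 5, 18 held 4, 103 held 3, 304 held 2, 479 held 1 and 177 held none. At full depth 41 of 149 inflammatory cells (27.5%) held all 5, against 52 of 1096 others (4.74%). Tnfaip2 was the gene most often missing from inflammatory cells, with UMIs in 72 of 149.

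Across all genes, 4715 had at least 20 CPM over the kept induction cells. Here a gene counts as higher, or as lower, when its levels differ at least 1.5-fold. By this size 67 genes (1.42%) were higher in inflammatory cells, 62 of them outside the rule, and 386 (8.19%) were lower. The median gene stood at a log2 ratio of -0.13, so list medians below are also given relative to it. The contrast is the one the rule used, and nothing is read from these shares. Scaled to the median gene and without the 5 genes, 119 were higher and 232 lower, which moves the share of higher genes among those past the size to 33.9%, against 14.8%.

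Chemokine transcripts other than the chosen ones were also higher, above all those of the same chromosomal cluster. Of 25 chemokine genes listed, 24 were in the files and 9 had at least 20 CPM. Of these 5 were higher, 2 of them genes of the rule, and none was lower. Over all genes tested 1.42% were higher and 8.19% lower. The list's median log2 ratio without the rule's genes was 0.54, or 0.67 relative to the median gene. Cxcl5, which draws neutrophils through Cxcr2, stood at 385 CPM (349 to 424), against 71.1 CPM (65.4 to 77.2) in other induction cells, a log2 ratio of 2.44 (2.25 to 2.62). Expansion cells had 706 CPM. Its transcripts were uneven: 55 of 149 inflammatory cells held any, against 151 of 1096 others, and 15 inflammatory cells held 66.2% of the group's UMIs. After thinning to 2000 UMIs the shares with a UMI were 24.2%, against 5.55%. Cxcl3, a further ligand of Cxcr2, stood at 94.5 CPM, against 31.6 CPM in other induction cells and 227 CPM in expansion cells. It was found in 28 of 149 inflammatory cells, against 76 of 1096 others.

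On GRCm38 the genes of these 4 chemokines neighbour each other on chromosome 5, with Cxcl5 from 90759360 to 90761624, Cxcl3 from 90786103 to 90789600, Cxcl1 from 90891241 to 90893115 and Cxcl2 from 90903871 to 90905938, all on the + strand. Cxcl15, which lies between them from 90794534 to 90803067, had 1 UMI in inflammatory cells and 0 in the others. Cxcl1 and Cxcl2 were higher by the choice of cells. Cxcl5 and Cxcl3, which are outside the rule, were higher as well, while their neighbour Cxcl15 was at the floor.

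The CC chemokines differed less. Ccl20, which attracts cells with the receptor Ccr6, stood at 1210 CPM (1145 to 1277), against 713 CPM (695 to 732) and, in expansion cells, 1254 CPM, with 120 of 149 inflammatory cells holding it, against 698 of 1096 others. Ccl2, the monocyte attractant, stood at 470 CPM, against 322 CPM, which is under the size limit at a log2 ratio of 0.54. Ccl9 stood at 806 CPM, against 822 CPM, Cxcl16 at 130.2 CPM, against 137.7 CPM, and Ccl27a at 26.6 CPM, against 25.5 CPM. The interferon-induced chemokine Cxcl10 had 9 UMIs, against 48, and Ccl5 had 0, against 5. Of the chemokines past the size, Ccl20 was nearest to it at a log2 ratio of 0.76, and it was under the size with the top 6% of cells taken (0.37), with the top 25% (0.54), and with cells chosen without Cxcl2 (0.48).

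Among cytokines, transcripts of lymphotoxin beta were higher and those of TNF were sparse. Of 20 genes listed, 4 had at least 20 CPM, and 2 of these were higher, 1 of them Il1rn of the rule. Over all genes tested 1.42% were higher. Ltb, a TNF family member that signals through the lymphotoxin receptor, stood at 277 CPM (247 to 310), against 134 CPM (126 to 142) and, in expansion cells, 323 CPM. It was found in 85 of 149 inflammatory cells, against 451 of 1096 others. Tnf, under 20 CPM over all induction cells, had 32 UMIs in 27 inflammatory cells (29.3 CPM, 20.1 to 41.4), against 82 UMIs in 75 other cells (10.1 CPM, 8.04 to 12.6). The expansion library, whose medium held TNFa protein, had 21.6 CPM of Tnf. Il1b and Il6 had 0 UMIs in both groups of induction cells, which allows up to 2.75 CPM in inflammatory cells. The growth factor Csf1 stood at 48.6 CPM, against 46.0 CPM.

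Few genes that carry the inflammatory signal differed by the size used here. The shares over all genes tested were 1.42% higher and 8.19% lower. Of 37 receptor and adaptor genes listed, 15 had at least 20 CPM and 1 was higher, Cd14, a co-receptor for bacterial lipopolysaccharide, at 65.1 CPM, against 29.8 CPM in other induction cells and 73.1 CPM in expansion cells. Of 22 NF-kB subunits and feedback inhibitors, 16 were at that level, 2 were higher and none was lower, with a median log2 ratio of 0.12 (0.25 relative to the median gene). Nfkbiz, an inducible nuclear cofactor of NF-kB, stood at 100.9 CPM, against 61.6 CPM, and Tnfaip3, the deubiquitinase A20 that shuts the pathway off, at 97.2 CPM, against 63.1 CPM. Over the alternatives tried the list had 0 to 4 higher and 0 to 2 lower genes, and the log2 ratio of Nfkbiz, 0.71 as chosen, was under the size at 0.39 for the top 6%, 0.51 for the top 25% and 0.32 for cells chosen without Cxcl1. Nfkbia stood at 483 CPM (443 to 526), against 455 CPM (441 to 470), with 514 CPM in expansion cells. The subunit genes were close between the groups, with Nfkb1 at 48.6 CPM, against 40.6 CPM, Rela at 42.2 CPM, against 48.9 CPM, and Relb at 79.8 CPM, against 88.5 CPM. Zc3h12a, an RNase that degrades inflammatory mRNAs, was under 20 CPM over all induction cells and had 23 UMIs (21.1 CPM, 13.4 to 31.6), against 57 UMIs (7.03 CPM, 5.32 to 9.11).

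Of 34 NF-kB target genes, 22 had at least 20 CPM, 4 of them higher (3 outside the rule) and 2 lower. The higher ones outside the rule were Cxcl5, Lcn2 and Tnfaip3. Vcam1, an adhesion molecule induced by TNF, stood in the other direction at 17.4 CPM (10.5 to 27.2), against 47.0 CPM (42.4 to 51.9) in other induction cells and 166 CPM in expansion cells. The STAT3, interferon and antigen presentation lists had 0 higher and 0 lower among 7, 3 and 12 genes of that level. Among all genes tested 1.42% were higher and 8.19% lower. B2m, the light chain of class I molecules, stood at 1282 CPM, against 1260 CPM.

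Acute phase transcripts were the other group that stood higher. All but 3 of the 28 listed genes had at least 20 CPM, which leaves 25, of which 10 were higher (8 outside the rule) and none lower. The median log2 ratio outside the rule was 0.33, or 0.46 relative to the median gene. Over all genes tested 1.42% were higher and 8.19% lower. Saa3, the serum amyloid A gene that mice also express outside the liver, stood at 16877 CPM (16634 to 17122), against 6830 CPM (6773 to 6887) in other induction cells and 17312 CPM in expansion cells. Per 10000 UMIs it ran from 0 through a median of 113 to 915 in inflammatory cells, against 0, 9.20 and 1660. The median cells lay far apart while the ranges overlapped, and the highest cell was not an inflammatory one.

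Lcn2, lipocalin-2, which binds bacterial iron carriers, stood at 12437 CPM (12229 to 12648), against 6312 CPM (6258 to 6367) and, in expansion cells, 5773 CPM. All 149 inflammatory cells held it, against 1085 of 1096 others, with a median per 10000 UMIs of 87.7, against 31.7. Saa1 stood at 1077 CPM, against 575 CPM, and Saa2 at 449 CPM, against 266 CPM. A single inflammatory cell held 109 of the 490 Saa2 UMIs, and without that cell the log2 ratio of Saa2 was 0.40, against 0.76 with it; in cells chosen without Saa4 it was 0.22. Saa1 and Saa2 are near-identical copies, so the split of UMIs between them is uncertain. Orm1, an orosomucoid gene, stood at 698 CPM, against 393 CPM, and shares sequence with Orm2 (63.3 CPM, against 60.4 CPM). Steap4, a ferric and cupric reductase, stood at 185 CPM, against 88.1 CPM.

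Other acute phase genes differed little. The haptoglobin gene Hp stood at 17124 CPM, against 15204 CPM, and the fibrinogen chains Fga, Fgb and Fgg had log2 ratios of 0.01, -0.05 and -0.06. Of 14 complement genes with at least 20 CPM, 1 was higher, C8g, a chain of the C8 complex, at 80.7 CPM, against 52.8 CPM. Among all genes tested 1.42% were higher. C3, the central complement protein, stood at 6458 CPM, against 4477 CPM, and Cfb, a component of the alternative pathway, had a log2 ratio of 0.58. The serum amyloid genes lie together on chromosome 7 of GRCm38, Saa3 from 46711998 to 46715700, Saa4 from 46727998 to 46732603, Saa1 from 46740497 to 46742980 and Saa2 from 46751790 to 46754313.

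**Figure D2:**
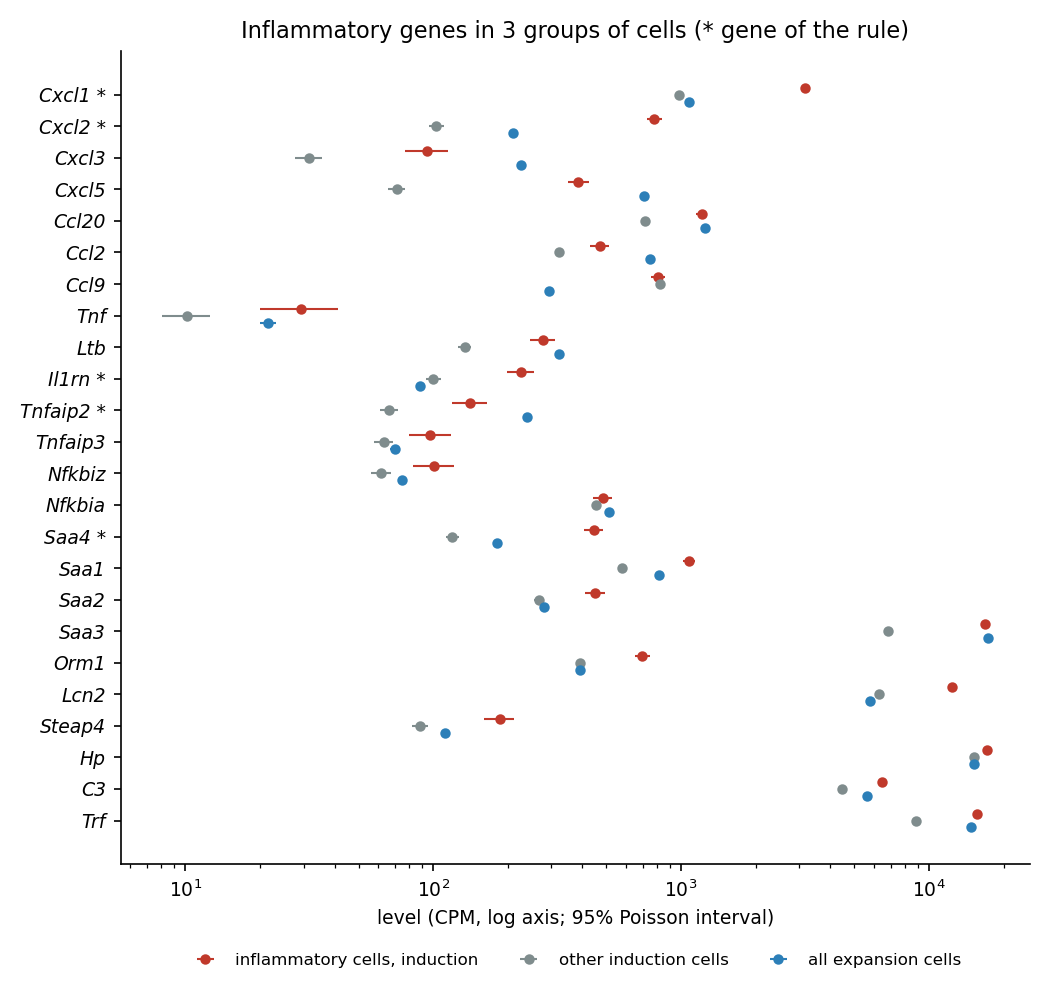
Level of 24 inflammatory genes in CPM (x axis, log scale) in inflammatory cells of the induction library (red), other induction cells (grey) and all expansion cells (blue), with 95% Poisson intervals; a star marks a gene of the rule. Cxcl5, Saa3 and Lcn2 lie clearly to the right of the grey points in inflammatory cells, while Ccl9, Nfkbia and Hp nearly coincide.

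Cxcl5, Saa3 and Lcn2 followed the score over the whole library. From the highest to the lowest scoring cells (the top 12%, then 12 to 25%, 25 to 50%, 50 to 75% and 75 to 100%), Cxcl5 stood at 385, 152, 78.5, 59.4 and 28.0 CPM. Saa3 stood at 16877, 13874, 8088, 5291 and 2980 CPM, and Lcn2 at 12437, 9417, 7865, 5500 and 3639 CPM over the same 5 ranks. Nfkbia showed no such order, with 483, 461, 512, 453 and 391 CPM. Saa1 was uneven, with 1077, 991, 471, 736 and 267 CPM, as was Saa2, with 449, 416, 225, 373 and 105 CPM, and Ccl20 had 1210, 830, 839, 694 and 525 CPM. A decline over all 5 ranks was also seen in Trf (15571, 11798, 9943, 8582 and 6240 CPM), C3, Ltb, Ccl2, Steap4, Fmo1, Orm1 and Cxcl3. The inflammatory cells were the upper end of a gradient in these genes as in Cxcl5, Saa3 and Lcn2.

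**Figure D3:**
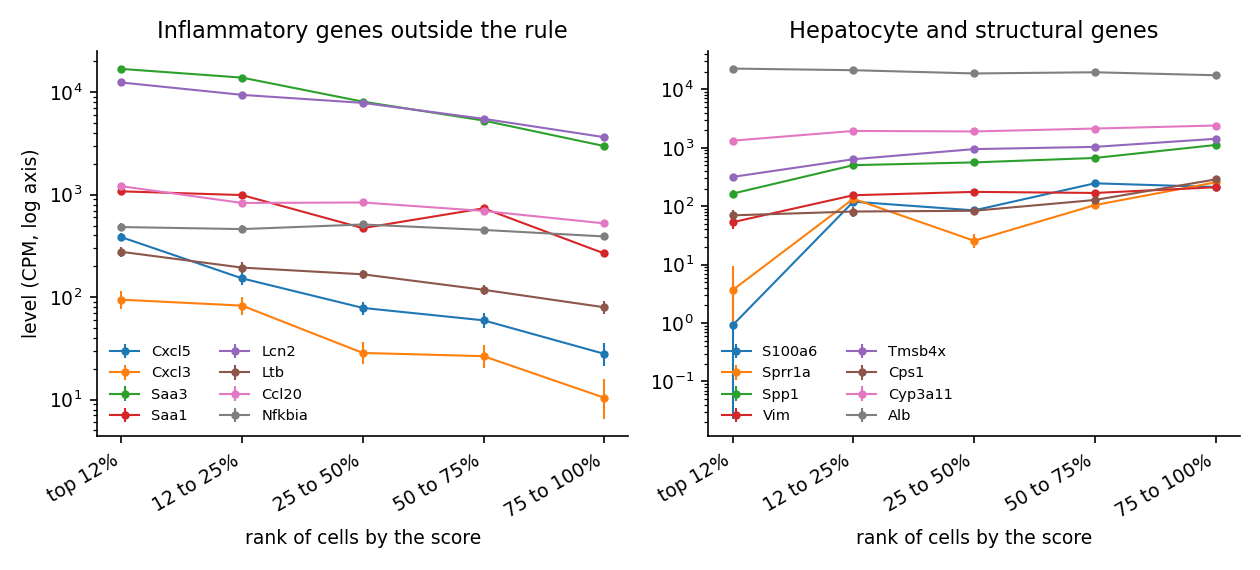
Level in CPM (y axis, log scale, with 95% Poisson intervals) of inflammatory genes outside the rule (left) and of hepatocyte and structural genes (right) in induction cells ranked by the score, from the top 12% (the inflammatory cells) to the lowest 25%. Cxcl5, Saa3 and Lcn2 decline over the 5 ranks, Nfkbia and Alb stay near level, and S100a6 had 1 UMI in the inflammatory cells.

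Leaving out the genes of the rule, the 15 genes with the largest ratios above 1 among genes of at least 100 CPM were Cxcl5, Saa3, Ltb, Fmo1, Lcn2, Saa1, Orm1, Trf, Ccl20, Saa2, Dgat2, Ces2e, Pnpla7, Cd74 and App. Fmo1, a flavin monooxygenase that oxidises drugs, stood at 230.2 CPM, against 113 CPM and, in expansion cells, 29.6 CPM. Trf, the iron carrier transferrin, stood at 15571 CPM, against 8866 CPM. Dgat2, which completes triglyceride synthesis, stood at 818 CPM, against 501 CPM, and the carboxylesterase gene Ces2e at 209.1 CPM, against 133 CPM. Pnpla7, a lysophospholipase, and App, the amyloid precursor protein, had log2 ratios of 0.61 and 0.59. Cd74, the chaperone of class II antigen molecules, stood at 491 CPM, against 325 CPM, while the class II chains H2-Aa and H2-Ab1 had 0 UMIs in both groups.

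The inflammatory cells were hepatocyte-like by their markers. All 10 hepatocyte markers had at least 20 CPM, and 1 of them, Trf, was past the size. Alb, serum albumin, stood at 22655 CPM, against 19019 CPM. Macrophage and Kupffer cell markers had 13 UMIs over 16 genes, against 73 UMIs, 12 and 66 of them from Fcer1g, the shared chain of Fc receptors. The defining leukocyte markers Ptprc, Adgre1, C1qa, Tyrobp and Clec4f had 0 UMIs in both groups. Neutrophil markers had 1 UMI, against 7, T and NK cell markers 1, against 0, and B cell markers 0, against 1. Of dendritic markers, Cd74 made up 536 of 537 UMIs, against 2637 of 2637. Endothelial markers had 74 UMIs, against 531 (67.9 CPM, against 65.5 CPM), mostly of Stab1 and Egfl7, and cholangiocyte markers 94, against 684 (86.2 CPM, against 84.3 CPM), with Krt7 at 0 in both. Stellate cell markers had 129 UMIs, against 1524 (118 CPM, against 188 CPM), nearly all of Rgs5, with Col1a1 and Col3a1 at 0 in both. Mesothelial markers had 1 UMI, against 12.

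Genes of the cytoskeleton and of dedifferentiated hepatocytes were lower in the inflammatory cells. Of 25 such genes with at least 20 CPM, 13 were lower and none higher, with a median log2 ratio of -0.69 (-0.57 relative to the median gene). Over all genes tested 8.19% were lower and 1.42% higher. S100a6, a calcium-binding protein, had 1 UMI in inflammatory cells, against 1386 UMIs in other induction cells, a log2 ratio of -7.54 with a counting interval of -12.85 to -5.06. With the top 25% of cells taken, the ratio of S100a6 was -1.49. Only 1 of 149 inflammatory cells held it (0.671%, 0.0170 to 3.68), against 86 of 1096 others (7.85%, 6.32 to 9.60). Sprr1a, a cornified envelope protein, had 4 UMIs in 1 inflammatory cell, against 1017 UMIs in the others. Both genes thus came from a small set of the other cells.

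Spp1, the secreted matrix protein osteopontin, stood at 164 CPM, against 728 CPM, Vim, the intermediate filament vimentin, at 53.2 CPM, against 179.5 CPM, and Tmsb4x, the actin-binding thymosin beta 4, at 317 CPM, against 1050 CPM. Without the 87 cells that hold a UMI of S100a6, the log2 ratio of Spp1 was -0.73, against -2.15 with them, that of Vim -0.84, against -1.75, and that of Tmsb4x -1.28, against -1.73. In cells chosen without Cxcl1 the ratio of Spp1 was -0.43, which is under the size. Without the cells that hold S100a6, 3 genes of the list were lower instead of 13, and the keratin gene Krt18 stood at -0.12 instead of -0.91. For Cxcl5 the ratio was larger without these cells, at 3.07, as it was for Cxcl3, at 2.65, against 1.58 with them, and for Ccl2, at 1.30, which is then past the size. The other genes among the 15 with the lowest ratios were Sh3bgrl3, Tm4sf4, Sox4, Gstm3, Anxa2, Sorbs2, Cps1, Cd24a and Bex1, with log2 ratios between -2.44 and -0.95.

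Enzymes of mature hepatocytes were lower in part. Over all genes tested 8.19% were lower and 1.42% higher. Of 23 genes of drug metabolism with at least 20 CPM, 8 were lower and 1, Fmo1, was higher, with a median log2 ratio of -0.44 (-0.31 relative to the median gene). Cyp3a11, the drug- and steroid-oxidising cytochrome P450, stood at 1323 CPM (1256 to 1393), against 2106 CPM (2075 to 2138) in other induction cells and 4.29 CPM in expansion cells. The glutathione transferase gene Gstm3 stood at 45.9 CPM, against 124 CPM. The log2 ratio of Cyp3a11 was 0.18 within cells with Xist and no Y-linked UMI, and -1.57 within cells with a Y-linked UMI and no Xist. Cyp3a11 shares sequence with its gene family, so some of its UMIs may belong elsewhere. Of 21 urea cycle and amino acid breakdown genes, 8 were lower and none higher, with a median of -0.35 (-0.22 relative to the median gene). Cps1, the carbamoyl phosphate synthetase that feeds the urea cycle, stood at 69.7 CPM, against 149 CPM, Arg1, arginase, at 44.9 CPM, against 83.8 CPM, and Bhmt, a methionine-forming enzyme, at 367 CPM, against 588 CPM.

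Of 17 glucocorticoid receptor targets and partners with at least 20 CPM, 2 were higher and 2 lower. Lcn2 and the protease inhibitor gene Serpina3n (48.6 CPM, against 30.8 CPM) were the higher ones. Sult1e1, an oestrogen sulfotransferase, stood at 6.42 CPM, against 28.4 CPM, and Sgk1, a salt-regulating kinase, had a log2 ratio of -0.67. Tat, the tyrosine aminotransferase and a classical target, stood at 132 CPM (111 to 155), against 154 CPM (146 to 163). Glucose and cholesterol lists had 0 higher and 0 lower of 10 and 20 genes. For these lists too, the shares over all genes tested were 1.42% higher and 8.19% lower.

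**Figure D4:**
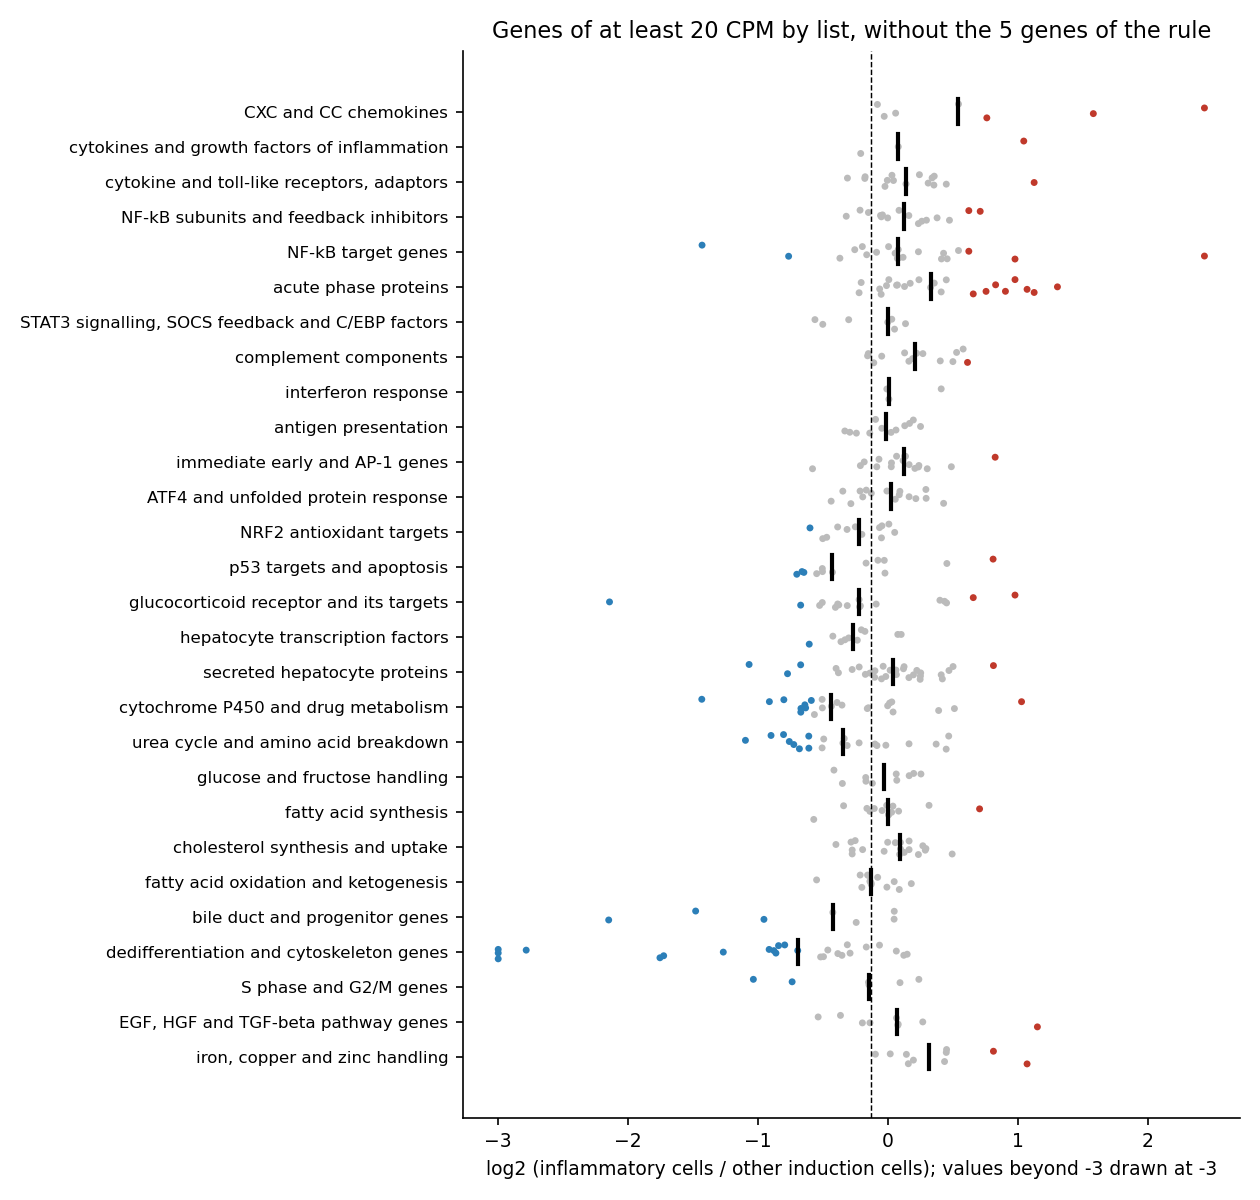
Log2 ratio of inflammatory over other induction cells (x axis) for each gene of at least 20 CPM in 28 lists (y axis), without the 5 genes of the rule; red points are at least 1.5-fold higher, blue points at least 1.5-fold lower, bars are list medians and the dashed line is the median gene at -0.13. Red points gather in the chemokine and acute phase lists, and blue points in the dedifferentiation, drug metabolism and amino acid lists.

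Clusters of the induction cells were made without the 5 genes, and the inflammatory cells spread over all 7 of them. Cluster 4, led by Pnpla7, the signalling regulator Rgs16 and the fatty acid synthesis enzyme Acaca, held 49 of them among 210 cells (23.3%, 17.8 to 29.6). Cluster 1, led by Saa2, Saa1 and Orm1, held 52 among 335 cells (15.5%, 11.8 to 19.9). Cluster 2, led by Sox4, the integrin gene Itgav and Ltb, held 16 of 131 (12.2%), and cluster 5, led by Tat, Cps1 and the imprinted RNA H19, held 17 of 221 (7.69%). Cluster 7, led by tubulin genes and the gene model 2700094K13Rik, held 6 of 84, cluster 3, led by the lipogenic genes Thrsp and Scd1 and by the sulfotransferase Sult1d1, held 8 of 171, and cluster 6, led by Sprr1a, S100a6 and Spp1, held 1 of 93. The cells chosen by 5 genes were not a cluster of their own. The clusters also differed in sex-linked transcripts. Cells with Xist and no Y-linked UMI made up 97.7% of cluster 5. They were 10.7%, 9.36% and 7.14% of clusters 1, 3 and 4, and 43.5%, 33.3% and 48.8% of clusters 2, 6 and 7. For cluster 5, its leading genes and its share of inflammatory cells cannot be told apart from this class of cells.

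Within clusters the ratios of Cxcl5, Saa3 and Lcn2 kept their sign in the 4 clusters with at least 16 inflammatory cells, though not their size. The log2 ratio of Cxcl5 was 3.86 (3.48 to 4.25) in cluster 1, 2.98 in cluster 2, 3.09 in cluster 4 and 1.25 (-0.51 to 2.70) in cluster 5, where it rested on 5 UMIs. For Saa3 it was 0.88, 2.06, 0.33 and 1.60, and for Lcn2 it was 0.66, 1.32, 0.19 and 1.32, in the same order. Cluster 7, with 6 inflammatory cells, went the other way for Saa3, at -1.41. Cxcl5 was lower there as well, at -1.81 (-4.88 to 0.08) on 2 UMIs, while Lcn2 was higher, at 0.46. In cluster 3 the 8 inflammatory cells held 0 UMIs of Cxcl5, against 5 in the other cells, with Saa3 at 0.87 and Lcn2 at 1.02. All genes but the 5 were open to the clustering, so these ratios are not independent of the clusters.

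**Figure D5:**
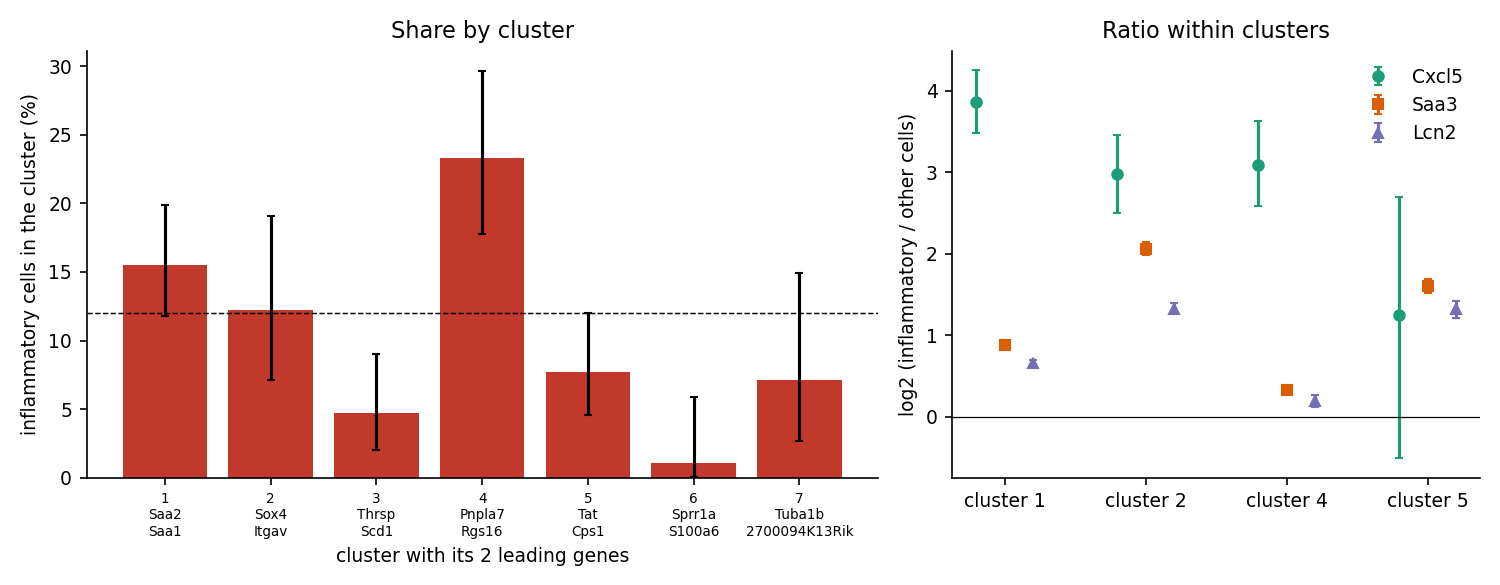
Left, share of inflammatory cells in percent (y axis) in each of 7 clusters made without the 5 genes, with exact 95% binomial intervals and the overall 12% as a dashed line. Right, log2 ratio of inflammatory over other cells within clusters 1, 2, 4 and 5 for Cxcl5, Saa3 and Lcn2, with counting intervals; cluster 4 has the highest share, at 23.3%, and the smallest ratio of Saa3, at 0.33.

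The library held cells with Xist and cells with transcripts of 4 Y-linked genes. Inflammatory cells made up 33 of 412 cells with Xist and no Y-linked UMI (8.01%, 5.58 to 11.1), 72 of 503 with a Y-linked UMI and no Xist (14.3%, 11.4 to 17.7) and 42 of 308 with neither (13.6%). Within the Xist cells Cxcl5 stood at 282 CPM, against 59.5 CPM, and within the Y-linked cells at 442 CPM, against 103 CPM. Saa3 stood at 12363 CPM, against 3258 CPM, within the Xist cells, and at 18191 CPM, against 8319 CPM, within the Y-linked cells. Lcn2 had log2 ratios of 1.32 and 0.80 in these classes, and Ltb stood at 234 CPM, against 146 CPM, in the Xist cells and at 340 CPM, against 119.9 CPM, in the Y-linked cells. Cxcl3 had only 5 UMIs in the inflammatory Xist cells and a log2 ratio of 0.16 (-1.52 to 1.47) there, against 0.99 (0.54 to 1.43) in the Y-linked cells, both under the value over all cells, and Ccl2 stood at -0.65 within the Xist cells. These classes cannot be told apart from the animals that gave the cells.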

How the data were processed

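Per the labels, single cells of mouse hepatocyte cultures went through the 10x Genomics Chromium system. The deposited matrices give raw UMI counts for every gene in every barcode, and per the submitters' processing notes the authors used Cell Ranger 2.1.1 and mm10; for the annotation release and cell calling, settings were not given in the sources used here. No file holds a cell type annotation. Depth was 9305593 UMIs in 1275 induction barcodes and 29545561 UMIs in 1208 expansion barcodes, so that low genes are measured less precisely after induction.

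Cells with at least 500 genes and at most 25% mitochondrial UMIs were kept, which left 1245 and 1191. The inflammatory cells, the gene lists and the marker lists were chosen with earlier results of these data known. Counts were summed over cells and scaled to CPM within each group. Levels carry exact Poisson, ratios exact conditional binomial and shares exact Clopper-Pearson intervals, at 95% and for counting error only; UMIs of 1 library give no measure of replicate error. The ratio code was tested on simulated data. No test between groups and no p-value was computed. Shares were compared after each cell was thinned to 2000 UMIs, which left out 14 other induction cells and no inflammatory cell. A set of 39 lists was described by counts and medians over genes of at least 20 CPM. Genes were named by rule: the 5 genes, the 15 largest ratios each way at 100 CPM or more without mitochondrial, ribosomal and unnamed models, per list the most abundant gene and the 2 ratios furthest from 1, all chemokines, cytokines and NF-kB genes, and 3 leading genes per cluster. Fga, Fgb, Fgg, Serpina3n, Orm2, Sgk1, Cxcl3 and Nfkbia as sequences, and the genes set beside Xist were picked once their values were known.

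Leiden clusters came from scanpy 1.11.5 with igraph 0.11.9 (resolution 0.6, 2000 variable genes, 20 components, 15 neighbours) without the 5 genes. They stay numbered. Doublets were not removed; an alternative leaves out the deepest 5% of cells. Coordinates are those of GENCODE M21 on GRCm38, where 28339 of 28692 gene IDs matched, and promoter windows from RefSeq on GRCm38.p6, where all 5 genes of the rule matched and Cxcl5 did not. Genes of the Saa, Orm, Serpina1, Cyp3a and Mt families have near-identical copies, and their UMIs may be divided wrongly between them. Python 3.11.15, numpy 2.4.6, scipy 1.17.1, pandas 2.3.3 and matplotlib 3.10.9 were used.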

Additional observations from a re-analysis of the deposited data

Results flagged for a closer look

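For 3 hepatocyte genes the ratio of inflammatory over other induction cells took opposite signs between Xist cells and cells with a Y-linked UMI. Alb had a log2 ratio of 0.83 in the Xist cells (28123 CPM, against 15849 CPM) and of -0.060 in the Y-linked cells (19874 CPM, against 20716 CPM). Cyp3a11 had 0.18 in the Xist cells (2860 CPM, against 2527 CPM) and -1.57 in the Y-linked cells (623 CPM, against 1853 CPM). Scd1, a fatty acid desaturase, had 0.25 in the Xist cells and -0.24 in the Y-linked cells. Each counting interval lay on 1 side of 0, and the difference between the classes was not tested. Inflammatory cells numbered 33 in the Xist class and 72 in the Y-linked class.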

How the results depend on the processing

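No paired analysis was possible because each medium had 1 library. Of the single genes recomputed under every setting, none past the size of 1.5-fold in the reported values changed its sign. Ccl2, under the size at 0.54, stood at -0.65 within the Xist cells. Genes outside that set did change sign. Cyp3a11, past the size over all cells at -0.67, stood at 0.18 within the Xist cells. The apolipoprotein gene Apoa4, at -1.07 over all cells, stood at 0.43 (-0.73 to 1.43) within the Y-linked cells. The counts of higher and lower genes, 67 and 386, stayed within 1.5 times under no cell filter, a stricter one, scores without each of the 5 genes, genes scaled to their means, equal weight for every cell, and without the deepest 5% of cells. They also did so without the 87 cells that hold S100a6 (57 and 332), an alternative chosen after seeing the data. Other settings moved them. The top 6% of cells gave 719 lower, and the top 25% gave 41 higher and 181 lower. Cells chosen in 1 of 2 random parts of the UMIs and measured in the other gave 126 and 612, without mitochondrial and ribosomal protein genes 607 were lower, and scaled to the median gene 119 and 232 were past the size. The Xist cells alone gave 315 and 1075, and the Y-linked cells 125 higher. A minimum of 50 CPM gave 31 and 108, no minimum 1099 and 2088, and a size of 2-fold 15 and 73; these change the genes counted by construction, and for the other settings the cause was not tested.

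Of the alternative values of single genes, 541 stayed within the counting interval of the reported ratio and 245 lay outside it. Cxcl5 ranged from 1.97 to 3.07 on the log2 scale, Saa3 from 1.07 to 1.92, Lcn2 from 0.79 to 1.32, Saa2 from 0.22 to 2.83 and Cxcl3 from 0.16 to 2.67. Among genes near the size, App ranged from 0.46 to 0.79, Nfkbiz from 0.32 to 1.08 and Krt18 from -1.21 to -0.12. Their calls depend on the choice of cells. So do those of Ccl20, Cd74, Ces2e, Pnpla7, Saa2, Spp1, Orm1, Dgat2, Cps1, Bex1, Anxa2, Sorbs2, Cxcl3 and Tnfaip2. The chemokine list had 3 to 6 higher genes and the acute phase list 8 to 13. The lower counts of the dedifferentiation list ranged from 3 to 19 and those of drug metabolism from 2 to 10. Low genes such as Tnf rest on few UMIs, and 1 library leaves every difference without a replicate check.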
